A study of Rattus norvegicus with 6 samples.

Results

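The proteasome genes are the rat genes whose symbol starts with Psm, then a letter from a to g, then a digit, which takes in the subunits of the protease and the proteins that cap, inhibit or assemble it. Of 47 such symbols on the array, 43 had a probe set annotated with that symbol alone, out of 10411 genes named in this way. The other 4 (Psmb6, Psmb6l1, Psma3l and Psme3) share their probe sets with other symbols, so no value is given for them. Of the 43, 13 encode the 20S core, 23 encode regulatory or assembly proteins and 5 are the interferon-induced subunits Psmb8, Psmb9, Psmb10, Psme1 and Psme2. The remaining 2, Psmc3ip and Psme3ip1, match the rule because they are named for a binding partner and encode no subunit. They are kept out of the group values, which leaves 41 proteasome genes proper.

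Expression was measured in cerebral resistance arteries of Dahl rats, dissected as branches of the middle and posterior cerebral and posterior cerebellar arteries. The high salt rats ate chow with 8% NaCl from 7 weeks of age, for 11 weeks by one label field and 12 weeks by another, and the low salt rats ate chow with 0.4% NaCl from 7 weeks of age for 12 weeks. All had low salt chow before that age, and their sex is not given. Each of the 6 arrays held RNA pooled from 3 rats, giving 3 high salt arrays and 3 low salt arrays that stand for 9 rats per diet.

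Proteins tagged with ubiquitin are degraded by the proteasome, a barrel of stacked rings. The outer rings are made of alpha subunits, which gate the entrance, and the inner rings of beta subunits, of which Psmb5, Psmb6 and Psmb7 carry the cutting sites. A 19S regulatory particle sits on the barrel, where its ATPases (Psmc genes) unfold the substrate and its other subunits (most Psmd genes) bind ubiquitin and hold the particle together. Under interferon gamma, cells build an immunoproteasome in which Psmb8, Psmb9 and Psmb10 take the places of Psmb5, Psmb6 and Psmb7, and Psme1 with Psme2 form an alternative cap. This form is known for cutting peptides for presentation on MHC class I, and is common in immune cells without stimulation.

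All 8 smooth muscle markers lay in the 2 brightest quintiles of genes (by mean over the arrays), and so did all 5 markers of fibroblasts and meninges and 8 of 10 of astrocytes, so that markers of the arterial wall and of cells around it were both among the brighter genes. The arrays did not share one distribution. Low salt replicate 1 had the narrowest spread of values, with an interquartile range of 2.57 against 2.92 to 3.18 on the other 5 arrays, and it held the lowest of the 6 values for 57.3% of genes in the 2 brightest quintiles. It also held the lowest value for 28 of the 41 proteasome genes, and 36 of the 43 symbols lie in those 2 quintiles. Without this array the bright genes had a median difference of 0.10 between diets, against 0.25 with it, and the proteasome medians stand beside these. Values are on a log2 scale after the authors' RMA, and levels of different probe sets are not compared.

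Most proteasome genes had higher values after high salt, and none passed the threshold. Of the 41 genes, 37 had the higher mean in the high salt arteries and 4 the lower one, and the median difference was 0.36 log2 units, from -0.27 for Psmf1 to 1.00 for Psmd4. Over all genes the median difference was 0.07 and 60.0% were higher, and in the 2 brightest quintiles it was 0.25, with 76.6% higher. By limma with Benjamini-Hochberg adjustment over all 15866 probe sets, 0 of the 43 symbols passed an adjusted p of 0.05, beside 0.0% of all genes, and the lowest adjusted p among them was 0.803. At an unadjusted p below 0.05 stood 8 of the 43, all higher, where 5.72% of all genes and 8.14% of the bright genes stood on that side, 0.711% and 0.913% on the other, and 5.33% of all probe sets on either. The 8 became 2 after quantile normalization and 4 after median centring. Without high salt replicate 1, 2 or 3 they became 2, 3 and 5, and without low salt replicate 1, 2 or 3 they became 7, 11 and 15. Shares of all genes at this p under these settings are not given, so these counts have no background beside them. Without low salt replicate 1 the median of the 41 genes was 0.15, beside 0.10 for the bright genes, with 35 higher and 6 lower. After quantile normalization it was 0.14, beside 0.03, with 31 higher and 10 lower. In a pool of tissue, fewer cells of a type and less RNA per cell cannot be told apart.

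**Figure D1:**
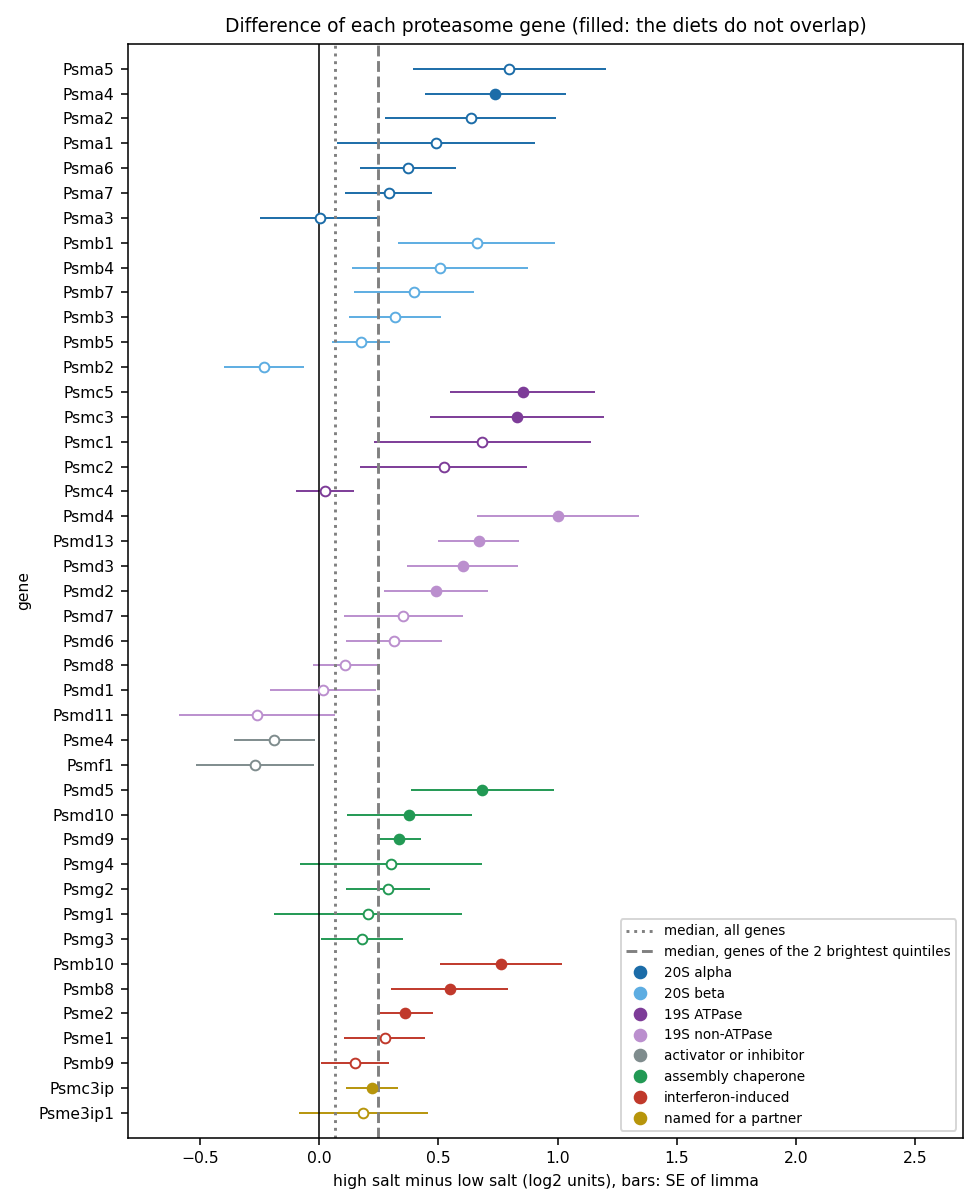
Difference of each of the 43 genes between diets (high over low salt, log2 units, horizontal axis), with the SE of limma as bars and genes grouped by role down the page. Filled points mark genes whose diets do not overlap, and the dotted and dashed lines mark the medians of all genes (0.07) and of the 2 brightest quintiles (0.25). Most points lie right of both lines, with Psmd4 at 1.00 farthest right and Psmf1 at -0.27 farthest left.

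For 14 of the 43 symbols every high salt array lay above every low salt array, and for 0 every high salt array lay below. The share of all genes with this separation was 8.64% on the higher side and 3.32% on the lower side, and among bright genes it was 12.0% and 1.59%. The 14 were Psma4 of the core, Psmb8, Psmb10 and Psme2 of the interferon-induced group, the 19S genes Psmc3, Psmc5, Psmd2, Psmd3, Psmd4 and Psmd13, the assembly chaperones Psmd5, Psmd9 and Psmd10, and Psmc3ip. Quantile normalization left 7 of the 41 proteasome genes separated on the higher side, where 5.48% of bright genes were, and all 7 belong to the 19S particle or its chaperones (Psmc3, Psmc5, Psmd2, Psmd4, Psmd5, Psmd9 and Psmd13). Median centring left 9, where 6.03% of bright genes were. Without low salt replicate 2, 22 of 43 were separated, where 35.9% of bright genes were. With the other arrays left out in turn the count was between 14 and 20, where 13.2% to 21.5% of bright genes were. Fewer arrays make separation easier to reach.

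The 20S core had 13 genes, 12 of them higher in the high salt arteries and 1 lower, and its median was 0.40. In the alpha ring 7 of 7 genes were higher and the median was 0.49, and in the beta ring 5 of 6 and 0.36. Without low salt replicate 1 the rings had medians of 0.17 (6 of 7 higher) and 0.14 (5 of 6), and that of the core was 0.17, where the bright genes stood at 0.10, and after quantile normalization it was 0.20, where they stood at 0.03. At an unadjusted p below 0.05 stood 1 of the 13 core genes, Psma4, where 5.72% of all genes and 8.14% of bright genes were higher at that p.

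Psma4, an alpha ring subunit, read 10.68, 10.73 and 10.30 on high salt arrays 1, 2 and 3, against 9.20, 10.16 and 10.12 on low salt arrays 1, 2 and 3. The diets did not overlap, and low salt replicate 1 lay well under the other low salt arrays. The difference was 0.74 ± 0.29 (SE) log2 units with all arrays and 0.43 without low salt replicate 1. Psma5, of the same ring, had 10.75, 11.27 and 11.00 in the high salt arteries and 9.30, 10.76 and 10.56 in the low salt arteries, a difference of 0.80 ± 0.41. Here high salt replicate 1 lay just below low salt replicate 2, and the difference was 0.35 without low salt replicate 1. Psma6 had the same low array, with 12.34, 12.17 and 12.25 after high salt, against 11.48, 11.94 and 12.23 after low salt, and a difference of 0.37 ± 0.20. The diets overlapped through low salt replicate 3, the highest of its group, and the difference was 0.17 without low salt replicate 1.

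Psmb1, a beta subunit without a cutting site, overlapped between diets. Its values were 11.63, 12.32 and 11.50 after high salt and 10.65, 11.15 and 11.66 after low salt, a difference of 0.66 ± 0.33, or 0.41 without high salt replicate 2, the highest array. Of the constitutive cutting subunits, Psmb5, which cuts after hydrophobic residues, had 12.53, 12.69 and 12.60 in the high salt arteries, against 12.24, 12.58 and 12.46 in the low salt arteries. The groups overlapped, and its difference of 0.18 ± 0.12 was under the median of bright genes (0.083 without low salt replicate 1). Psmb7, which cuts after basic residues, had 10.01, 10.70 and 9.79 after high salt, against 9.82, 9.59 and 9.89 after low salt, a difference of 0.40 ± 0.25 with high salt replicate 2 well above the rest, and 0.13 without it. The 1 core gene on the lower side was Psmb2, a beta subunit without a cutting site, with 10.83, 11.14 and 11.29 after high salt and 11.21, 11.20 and 11.55 after low salt, a difference of -0.23 ± 0.17, or -0.10 without high salt replicate 1. The other 6 core genes (Psma1, Psma2, Psma3, Psma7, Psmb3 and Psmb4) lay between 0.0036 and 0.64 and overlapped between diets.

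The regulatory and assembly group had 23 genes, 20 higher and 3 lower, with a median of 0.34. Within it the 19S ATPases had 5 of 5 genes higher and a median of 0.68, the other 19S subunits 8 of 9 and 0.35, and the assembly chaperones 7 of 7 and 0.30. Without low salt replicate 1 these medians were 0.19 for the ATPases (5 of 5 higher), 0.14 for the other subunits (8 of 9) and 0.15 for the chaperones (6 of 7). The group's median was 0.14 without low salt replicate 1, where the bright genes stood at 0.10, and 0.13 after quantile normalization, where they stood at 0.03. At an unadjusted p below 0.05 stood 5 of the 23 genes, all higher, where 5.72% of all genes and 8.14% of bright genes were higher at that p. After quantile normalization Psmc5 and Psmd13 alone remained there.

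Psmd4, a ubiquitin receptor of the particle, had the widest difference of all 43 symbols, 1.00 ± 0.34 or 2.00-fold. It read 10.49, 10.31 and 10.42 on the high salt arrays, against 9.17, 8.88 and 10.17 on the low salt arrays. The high salt arrays lay close together (10.41 ± 0.09, SD, n = 3), while low salt replicate 3 stood near them and apart from its own group (9.41 ± 0.68, SD, n = 3). Without that array the difference was 1.39, and without low salt replicate 1 it was 0.88. Psmd13, a structural subunit of the lid, had the lowest unadjusted p of the 43 symbols. Its values were 9.59, 9.56 and 9.37 after high salt and 8.51, 8.99 and 9.02 after low salt, a difference of 0.67 ± 0.17, or 0.50 without low salt replicate 1. All high salt arrays stood clear of the low salt arrays. Psmd3, another lid subunit, had 10.39, 10.36 and 10.08 in the high salt arteries, against 9.75, 9.21 and 10.06 in the low salt arteries, a difference of 0.60 ± 0.23. The groups did not overlap, but high salt replicate 3 and low salt replicate 3 almost met, and the difference was 0.37 without low salt replicate 2.

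Among the ATPases, which thread the substrate into the core, Psmc5 had 9.95, 9.65 and 9.94 after high salt and 8.33, 9.17 and 9.47 after low salt, a difference of 0.85 ± 0.30, or 0.52 without low salt replicate 1. The diets did not overlap, and the lowest array was again low salt replicate 1. Psmc3 differed by 0.83 ± 0.36 without overlap, or 0.41 without low salt replicate 1, and Psmc1 and Psmc2 differed by 0.68 ± 0.46 and 0.52 ± 0.35 with overlap. Psmc4 stood at 0.02 ± 0.12. Without low salt replicate 1, Psmc1 stood at 0.19 and Psmc2 at 0.12. Adjusted p was 0.803 for Psmd4, Psmd13, Psmd3 and Psmc5 alike (limma, Benjamini-Hochberg).

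The promoter of Psmd13 is shown because this gene had the lowest p of the group. It covers 250 bases before and 50 after the gene's start in RefSeq's GRCr8 and runs 5′ to 3′. Capitals mark the letters TGANNNNGC, the core of the antioxidant response element, which factors of the NFE2 family bind. Nfe2l1 is known as the factor that raises proteasome genes when proteasome activity is short.
Psmd13, chr1:205393998-205394297, plus strand: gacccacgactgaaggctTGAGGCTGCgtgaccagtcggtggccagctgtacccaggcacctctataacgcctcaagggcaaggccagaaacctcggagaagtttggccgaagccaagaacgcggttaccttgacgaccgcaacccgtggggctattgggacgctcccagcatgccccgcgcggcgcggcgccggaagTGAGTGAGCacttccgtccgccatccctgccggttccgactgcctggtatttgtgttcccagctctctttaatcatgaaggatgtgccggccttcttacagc

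Of 39 proteasome promoters found in the RefSeq table (of 41), 20 held TGANNNNGC on either strand, against 40.5% of all 33469 promoters of that length. By group these were 8 of 12 core promoters, 11 of 22 regulatory and assembly promoters and 1 of 5 interferon-induced promoters. The GC box GGGCGG was in 27 of the 39, against 33.1% of all promoters, and CCAAT in 20, against 37.5%. Matches of different motifs overlapped in 5 of the 39 promoters (Psma5, Psmb2, Psmb7, Psmb9 and Psmg4). Nfe2l1 itself read 9.67, 9.25 and 9.55 on the high salt arrays and 9.78, 9.22 and 9.58 on the low salt arrays. The groups overlapped, with a difference of -0.04 ± 0.19. Of 10 measured regulators of proteasome genes, 8 were higher and 0 passed the adjusted threshold. Their median difference was 0.41, or 0.26 without low salt replicate 1, and the 3 of lowest p were Foxo3, a stress-responsive factor, at 0.71 ± 0.27, Mafg, a partner of the NFE2 family, at 0.42 ± 0.22, and Stat3 at 0.52 ± 0.29. Foxo3 stood at 0.44 without low salt replicate 1, and Mafg and Stat3 at 0.19 and 0.32 without high salt replicate 1.

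Assembly of the 19S base is guided by chaperones that do not stay in the finished particle, among them Psmd5, Psmd9 and Psmd10, while Psmg1 to Psmg4 guide the core's alpha ring. Psmd9 had the narrowest spread of the chaperones, with 8.57, 8.47 and 8.43 after high salt and 8.11, 8.13 and 8.23 after low salt. The diets did not overlap, and the difference of 0.34 ± 0.09 ran from 0.29 to 0.37 with 1 array left out. Psmd5 had 10.08, 9.91 and 10.26 in the high salt arteries, against 8.73, 9.79 and 9.68 in the low salt arteries, a difference of 0.69 ± 0.30 that came to 0.35 without low salt replicate 1. Psmd10, also known as gankyrin, had 11.09, 11.03 and 11.10 after high salt, against 10.09, 10.99 and 11.00 after low salt, a difference of 0.38 ± 0.26. All 3 high salt arrays were above, with low salt replicate 1 far below the rest, and the difference was 0.08 without it. The core chaperone Psmg2 had 9.02, 9.09 and 9.39 after high salt, against 8.58, 9.08 and 8.97 after low salt, a difference of 0.29 ± 0.18 with overlap, or 0.14 without low salt replicate 1. The other 3 core chaperones lay between 0.18 and 0.30 and overlapped, and the maturation factor Pomp, outside the rule, differed by 0.20 ± 0.15 (0.10 to 0.34 with 1 array left out).

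Lower after high salt were Psmd11, Psme4 and Psmf1, each with overlap between diets. Psmf1, an inhibitor of the core in vitro, read 9.53, 9.63 and 9.80 on the high salt arrays, against 10.43, 9.51 and 9.82 on the low salt arrays. Its difference was -0.27 ± 0.25, with low salt replicate 1 the highest array, and -0.01 without it. Psmd11, a scaffold subunit of the lid, had 10.66, 9.99 and 10.68 after high salt, against 11.05, 10.08 and 10.97 after low salt. Its difference was -0.26 ± 0.33, or -0.033 without high salt replicate 2, and a second probe set gave -0.09 ± 0.21. Psme4, a cap that opens the core without ATP, had 8.95, 8.94 and 9.02 in the high salt arteries, against 8.88, 9.49 and 9.10 in the low salt arteries, a difference of -0.19 ± 0.17, or -0.020 without low salt replicate 2. Its 2 other probe sets had the opposite sign, at 0.72 ± 0.44 and 0.36 ± 0.32, so that its direction depends on the probe set.

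**Figure D2:**
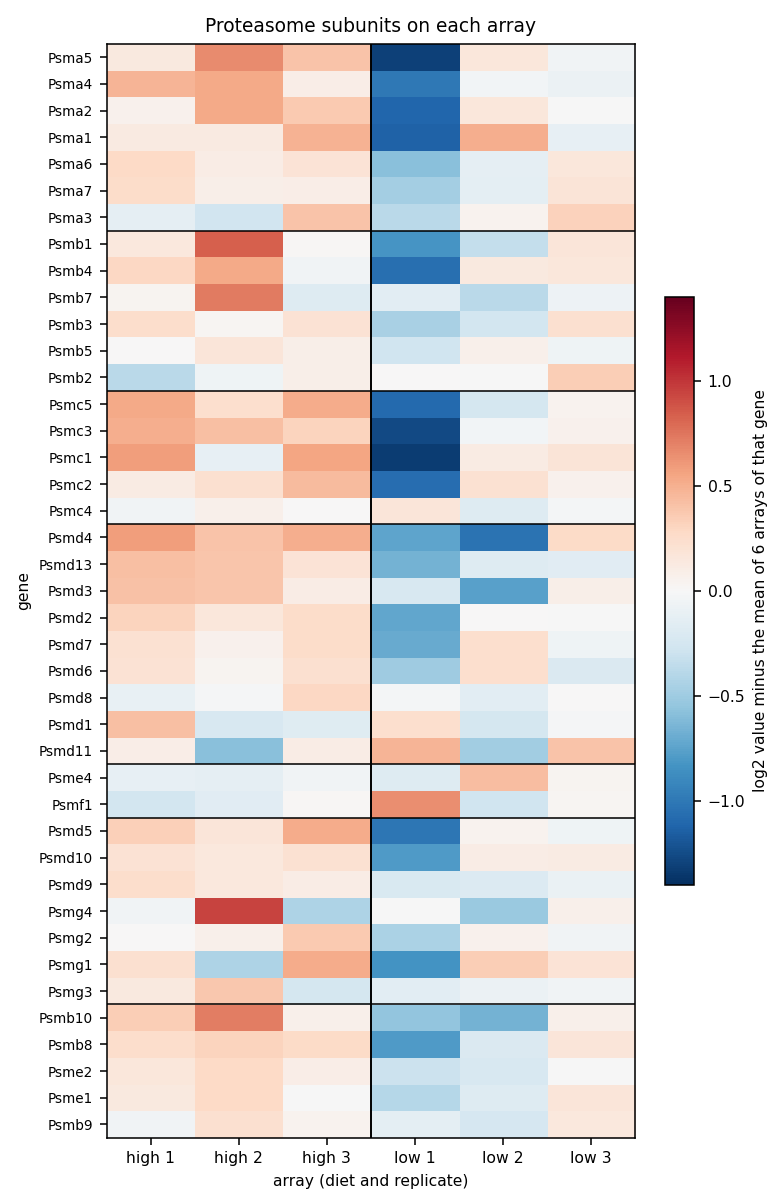
Log2 value of each of the 41 proteasome genes on each array, minus that gene's mean over the 6 arrays, with the high salt arrays left of the vertical line and groups by role separated by horizontal lines. Low salt replicate 1 is the darkest blue column, and is lowest for 28 of the 41 genes, while low salt replicate 2 is lowest for 10.

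The interferon-induced group was higher in 5 of 5 genes, with a median of 0.36. For 3 of the 5 the diets did not overlap, where 8.64% of all genes and 12.0% of bright genes were separated on the higher side. By limma 2 of the 5 stood at an unadjusted p below 0.05, where 5.72% and 8.14% were higher at that p. Its median was 0.29 without low salt replicate 1, beside 0.10 for the bright genes, and 0.33 without low salt replicate 2, beside 0.33. After quantile normalization its median was 0.14, beside 0.03. In that setting 0 of the 5 were separated on the higher side, where 5.48% of bright genes were. Psmb8 and Psmb10 overlapped between diets after median centring as well. Whether it differs from the other groups was not tested.

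Promoters of 4 of the 5 genes are shown because the immunoproteasome genes are defined by their response to interferon. Capitals mark the core of the interferon-stimulated response element, GAAA, then 2 bases of any kind, then GAAA, which interferon regulatory factors bind, and TTCNNNGAA, the gamma-activated site that STAT proteins bind, on either strand. Each covers 250 bases before and 50 after the gene's start in RefSeq's GRCr8 and runs 5′ to 3′.
Psmb8, chr20:4656982-4657281, minus strand: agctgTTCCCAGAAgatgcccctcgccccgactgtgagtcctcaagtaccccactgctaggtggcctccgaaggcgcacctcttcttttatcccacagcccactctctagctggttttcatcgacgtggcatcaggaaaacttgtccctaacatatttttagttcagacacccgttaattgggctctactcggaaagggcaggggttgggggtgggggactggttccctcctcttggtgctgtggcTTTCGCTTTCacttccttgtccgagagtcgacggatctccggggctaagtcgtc
Psmb10, chr19:50743243-50743542, minus strand: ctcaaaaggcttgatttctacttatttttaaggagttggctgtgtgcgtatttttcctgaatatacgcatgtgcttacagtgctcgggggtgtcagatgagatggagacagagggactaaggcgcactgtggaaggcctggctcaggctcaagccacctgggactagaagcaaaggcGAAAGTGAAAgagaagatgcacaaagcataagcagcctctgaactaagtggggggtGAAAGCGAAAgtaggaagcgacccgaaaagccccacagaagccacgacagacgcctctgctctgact
Psme2, chr15:33052702-33053001, minus strand: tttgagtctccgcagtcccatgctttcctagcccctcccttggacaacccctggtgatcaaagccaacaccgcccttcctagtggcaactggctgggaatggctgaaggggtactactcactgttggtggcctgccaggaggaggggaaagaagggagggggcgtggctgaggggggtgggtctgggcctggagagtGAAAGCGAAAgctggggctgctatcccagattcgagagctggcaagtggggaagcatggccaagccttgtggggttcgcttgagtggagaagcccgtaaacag
Psmb9, chr20:4668750-4669049, plus strand: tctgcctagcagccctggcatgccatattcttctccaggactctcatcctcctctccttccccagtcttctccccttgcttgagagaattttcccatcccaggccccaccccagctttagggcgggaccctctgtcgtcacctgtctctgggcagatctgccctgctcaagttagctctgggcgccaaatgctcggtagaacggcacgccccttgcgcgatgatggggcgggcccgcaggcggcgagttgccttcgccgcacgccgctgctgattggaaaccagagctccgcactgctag

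The interferon motif was found in 3 of the 5 promoters, those of Psmb8, Psmb10 and Psme2, against 3.92% of all 33469 promoters. Psmb10 holds it at 2 places. Among the other proteasome promoters it was in 2 of 12 core promoters and 2 of 22 regulatory and assembly promoters. TTCNNNGAA was in the promoter of Psmb8 alone among the 5, against 8.87% of all promoters. The window of Psmb9 holds neither set of letters. That of Psme1 holds no whole match, but it ends on the first 8 of the 10 letters of the interferon motif as read on the other strand, so a match across its edge cannot be told from this window.

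Psmb8, which takes the place of Psmb5, read 10.32, 10.38 and 10.33 on high salt arrays 1, 2 and 3, against 9.28, 9.86 and 10.24 on low salt arrays 1, 2 and 3. The high salt values were nearly equal (10.34 ± 0.03, SD, n = 3), while the low salt values were spread (9.79 ± 0.49) with the third array close to the high salt level. The difference was 0.55 ± 0.25, or 0.29 without low salt replicate 1. Psmb10, which takes the place of Psmb7, had 10.31, 10.68 and 10.04 in the high salt arteries and 9.41, 9.30 and 10.03 in the low salt arteries. The groups almost met, without overlap, at high salt replicate 3 and low salt replicate 3. Its difference of 0.76 ± 0.26 was the widest of the 5, and it was 0.68, 0.62 and 0.99 with low salt replicate 1, 2 or 3 left out. Psmb9, which takes the place of Psmb6, had 10.39, 10.66 and 10.49 after high salt and 10.30, 10.19 and 10.58 after low salt. The groups overlapped, the difference was 0.15 ± 0.14 (0.070 without low salt replicate 2, 0.26 without low salt replicate 3), and it was -0.09 after quantile normalization.

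Of the cap genes, Psme2 had 11.26, 11.37 and 11.19 after high salt, against 10.79, 10.86 and 11.08 after low salt, a difference of 0.36 ± 0.12 with no overlap. Psme1 had 12.05, 12.18 and 11.91 after high salt, against 11.52, 11.73 and 12.08 after low salt, a difference of 0.28 ± 0.17 with overlap, or 0.15 without low salt replicate 1. In both, low salt replicate 3 was the highest low salt array, as it was for all 5 genes of the group. Adjusted p was 0.803 for Psmb8, Psmb10, Psme1 and Psme2 and 0.809 for Psmb9 (limma, Benjamini-Hochberg).

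**Figure D3:**
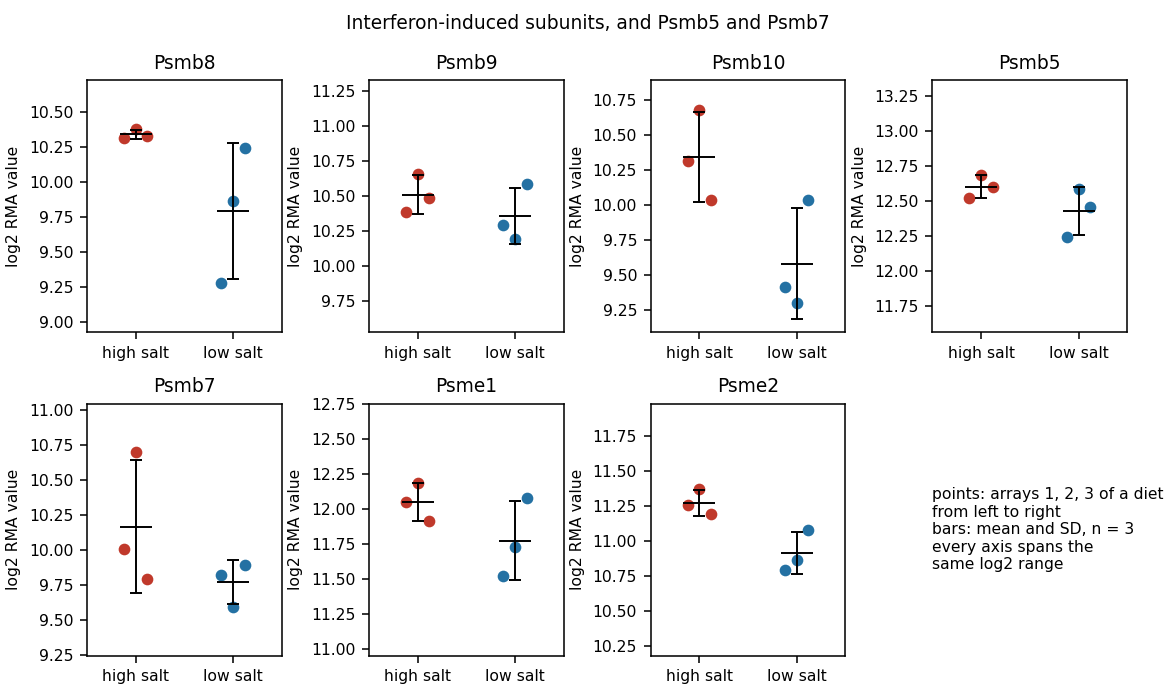
Log2 RMA values of the 5 interferon-induced genes and of Psmb5 and Psmb7, with each array as a point, the high salt diet left and the low salt diet right, and bars for the mean and SD of 3 arrays. The high salt points lie above the low salt points for Psmb8, Psmb10 and Psme2, and mix with them for Psmb9, Psme1, Psmb5 and Psmb7.

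A shift of equal size over an array's genes cancels when an induced subunit is set against the constitutive one it replaces. A shift that varies with brightness need not cancel. Such a shift is seen on low salt replicate 1, with a median deviation of -0.41 for bright genes and -0.04 for all genes. For Psmb8 minus Psmb5 the log2 differences were -2.21, -2.31 and -2.27 on the high salt arrays, against -2.97, -2.72 and -2.22 on the low salt arrays. Only the change between diets can be read from these, since probe sets differ in brightness, and it was 0.37 in favour of Psmb8 with low salt replicate 3 among the high salt values. For Psmb10 minus Psmb7 they were 0.30, -0.02 and 0.24 on the high salt arrays and -0.41, -0.29 and 0.14 on the low salt arrays, a change of 0.37 with low salt replicate 3 again inside the high salt range. An exact two-sided permutation test over the 6 arrays gave p = 0.3 for the first pair and 0.2 for the second, or 0.3 for both after Benjamini-Hochberg adjustment over 2 pairs, and 3 arrays against 3 cannot go below 0.1. The changes ran from 0.21 to 0.58 for the first pair and from 0.25 to 0.53 for the second with 1 array left out, in both lowest without low salt replicate 1 and highest without low salt replicate 3. The place of Psmb6 could not be compared, for want of a probe set of its own.

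Psmb8 and Psmb9 lie on chromosome 20 in the order Tap2, Psmb8, Tap1, Psmb9 in RefSeq's gene table, where Tap1 and Tap2 encode the transporter that carries cut peptides to MHC class I. Both transporter genes separated by diet as deposited, and neither was separated on the higher side after quantile normalization. Tap1 had 8.29, 8.20 and 8.58 after high salt and 7.87, 7.65 and 8.14 after low salt, a difference of 0.48 ± 0.17. Tap2 had 7.01, 7.26 and 6.71 after high salt, against 6.50, 6.70 and 6.68 after low salt. Its groups almost met at high salt replicate 3 and low salt replicate 2. The difference was 0.37 ± 0.16, or 0.24 without high salt replicate 2, and its probe set lies in brightness quintile 2 of 5, counted from the dimmest. Psme1 and Psme2 lie on chromosome 15 with 1 protein-coding gene, Emc9, between them.

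Of 13 class I pathway genes measured, Tap1 and Tap2 included, 8 were higher and 5 lower, and the median was 0.15, or 0.07 without low salt replicate 1. The chaperone Calr was separated by diet as deposited, at 0.28 ± 0.12. Of the 13 genes, 3 were separated on the higher side as deposited, where 8.64% of all genes were. After quantile normalization 0 were, where 4.74% of all genes were. B2m, the light chain of class I molecules, differed by 0.15 ± 0.15, and the chaperone Tapbp, which loads the peptides, by -0.10 ± 0.24. Interferon signalling genes were 14 higher and 9 lower of 23 measured, with a median of 0.07, the median of all genes (0.09 without low salt replicate 1, beside 0.05). Irf1, a factor that binds the interferon motif, had 9.90, 9.99 and 10.08 after high salt and 9.05, 9.97 and 9.62 after low salt, a difference of 0.44 ± 0.24 with overlap, or 0.19 without low salt replicate 1. The antiviral genes Rsad2 and Mx2 stood at 1.95 ± 0.58 and 0.63 ± 0.17. The interferon gamma target Ubd stood at -0.04 ± 0.12, and Cxcl9, another, at -0.03 ± 0.10 from a probe set in the dimmest quintile. In both lists 0 genes passed the adjusted threshold by limma. At an unadjusted p below 0.05 were 1 of 13 and 2 of 23, where 5.72% of all genes were higher at that p.

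Cell types that carry the immunoproteasome without stimulation were followed by their markers. Macrophage and microglia markers were higher in 9 of 11 genes, where 60.0% of all genes and 76.6% of bright genes were. Their median difference was 0.19, beside 0.07 for all genes and 0.25 for bright genes. Not all of the 11 are bright: 3 lie in brightness quintile 2, 2 in quintile 3, 3 in quintile 4 and 3 in quintile 5. Genes of these quintiles had medians of -0.01, 0.14, 0.23 and 0.26. They averaged 9.09 to 9.45 on the high salt arrays and 8.70 to 9.17 on the low salt arrays. Without low salt replicate 1 they were higher in 11 of 11 with a median of 0.29, beside 0.10 for bright genes, and after quantile normalization in 6 of 11 with a median of 0.06. Low salt replicate 3 was the highest low salt array for these markers, as for the interferon-induced subunits, and high salt replicate 2 the highest of all 6 for both. The 20S core shared this, with median deviations of 0.16 on low salt replicate 3 and 0.17 on high salt replicate 2, so it was not particular to the interferon-induced subunits. C1qa and Aif1 were without overlap (1.19 ± 0.34 and 1.10 ± 0.61). Aif1 read 6.67 on low salt replicate 1, against 8.81 and 8.80 on low salt replicates 2 and 3. C1qb and C1qc overlapped between diets, at 0.33 ± 0.21 and 0.10 ± 0.40. Cd68 stood at -0.06 ± 0.31 and Csf1r at 0.19 ± 0.19. Lymphocyte markers averaged 6.29 to 6.54 on the high salt arrays and 6.50 to 6.57 on the low salt arrays. Of 10, 8 lay in the dimmest quintile, and 7 of the 10 were lower, as were 67.9% of all genes of that quintile.

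Markers of other cells were followed as well, and the array averages of astrocyte and smooth muscle markers overlapped between diets. Red blood cell markers were higher in 3 of 3 genes, with a median of 0.93, and averaged 10.5 to 11.2 on the high salt arrays and 10.0 to 10.2 on the low salt arrays, without overlap. Hbb, a globin chain, had 14.03, 13.80 and 13.99 after high salt and 12.46, 13.28 and 13.26 after low salt, a difference of 0.94 ± 0.24. Astrocyte markers were higher in 9 of 10 genes, with a median of 0.79, or 0.37 without low salt replicate 3. They averaged 10.8 to 11.1 on the high salt arrays and 9.07 to 11.1 on the low salt arrays, and were highest on low salt replicate 2. Smooth muscle markers were lower in 8 of 8 genes (differences of -0.74 to -0.06), or in 6 of 8 without low salt replicate 1. Without low salt replicate 3 they were lower in 4 of 8, with a median of -0.03. They averaged 11.3 to 11.5 on the high salt arrays and 11.1 to 12.0 on the low salt arrays, and were lowest on low salt replicate 2. Endothelial markers were higher in 6 of 7 genes, with a median of 0.13, or in 2 of 7 without low salt replicate 2. Those of fibroblasts and meninges were higher in 4 of 5 (median 0.09). Neuron markers were higher in 3 of 7 (-0.05) and oligodendrocyte markers in 3 of 5 (0.24). None of these markers passed the adjusted threshold (limma, Benjamini-Hochberg). The part of these cells in the differences of the subunits was not tested.

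**Figure D4:**
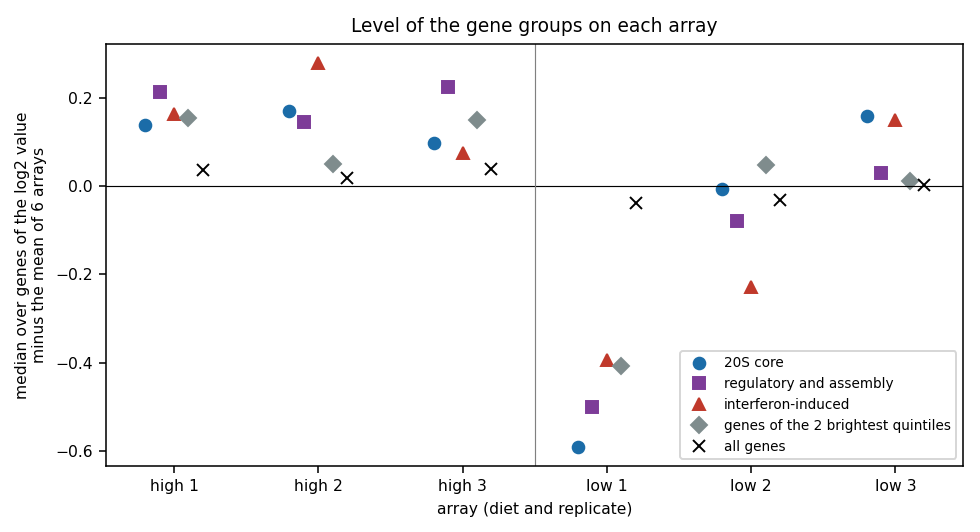
Median over genes of the log2 value minus each gene's mean of 6 arrays, by array, with the high salt arrays left of the line. On low salt replicate 1 the medians of the 20S core, of the regulatory and assembly genes and of the interferon-induced genes stood at -0.59, -0.50 and -0.39, beside -0.41 for genes of the 2 brightest quintiles and -0.04 for all genes.

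Low salt replicates 2 and 3 held the groups in different orders. On low salt replicate 2 the interferon-induced median was -0.23, the regulatory and assembly median -0.08 and the core median -0.0064, where the bright genes stood at 0.05. On low salt replicate 3 these were 0.15, 0.03 and 0.16, beside 0.01 for the bright genes. On the high salt arrays the 3 groups lay between 0.08 and 0.28, and the bright genes between 0.05 and 0.15.

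**Figure D5:**
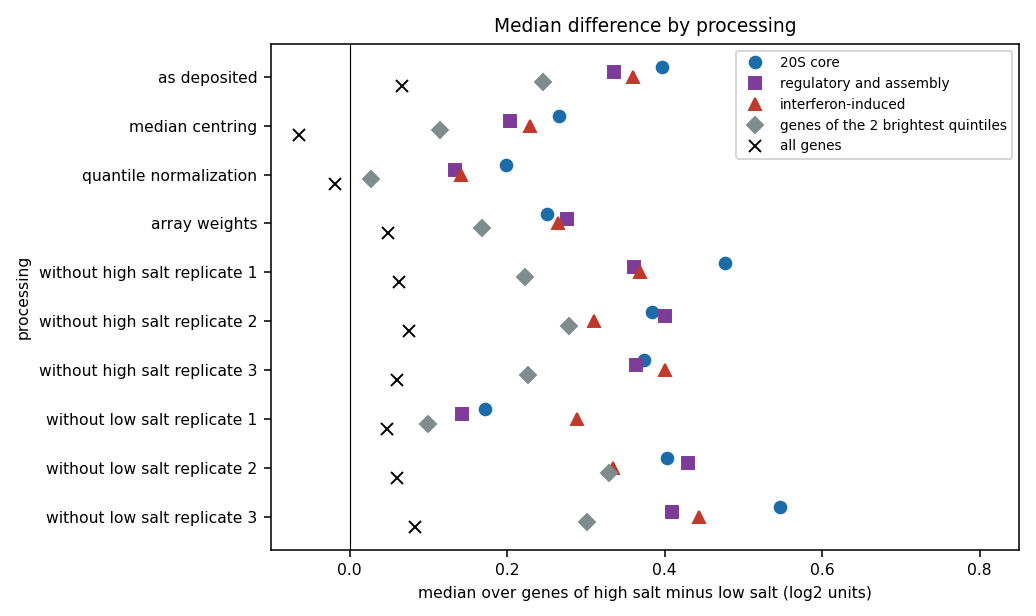
Median difference between diets (high over low salt, log2 units) for each gene group, as deposited, after other scalings and with each array left out. All 3 proteasome medians stay above 0 and above the median of the 2 brightest quintiles in each of the 10 settings plotted, and are lowest, 0.13 to 0.20, after quantile normalization, or, for the core, 0.17 without low salt replicate 1.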

How the data were processed

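Gene expression was measured on 6 Affymetrix rat arrays, 1 per pool of 3 rats, after amplification of RNA in 2 cycles, per the labels' protocols. The deposited table holds log2 values per probe set, made by the authors with RMA (background correction, equalisation and summary of probes), per the submitters' processing notes. Base 2 was read from the range of values. Of 15923 rows, 57 control probe sets were left out. Names came from the platform's annotation, and all 43 symbols matched the RefSeq gene table of GRCr8 by Entrez identifier. Where a gene had several probe sets, the brightest on average was used.

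The diets were compared with limma (3.58.1, R 4.3.3), 3 arrays against 3 without a block, on all 15866 probe sets with Benjamini-Hochberg adjustment. On simulated arrays for this comparison (15866 probe sets, 200 changed) it recovered 39% of changes of 1 log2 unit and 81% of changes of 2. Of the probe sets called there, 78 of 81 and 162 of 179 were changed ones. The simulated probe sets varied independently, without a shift shared by an array's genes such as that of low salt replicate 1. These shares may therefore not hold for the real arrays. The number of arrays limits the precision. The genes, lists and naming rule (the interferon-induced and constitutive cutting subunits, and up to 4 genes of lowest p per direction and group) were chosen with earlier results of these data known. Genes named beyond it were chosen after their values were seen. Alternatives were 2 scalings, a filter on dim probe sets, other variances, array weights, a replicate block, the mean of probe sets, adjustment per gene and leaving out each array.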

Additional observations from a re-analysis of the deposited data

How the results depend on the processing

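Every alternative left 0 of the 43 symbols past an adjusted p of 0.05 (limma, Benjamini-Hochberg), and the smallest adjusted p of any of them in any setting was 0.214, without low salt replicate 2. Of 602 values (43 symbols in 14 settings), 579 kept the sign, and 34 symbols kept it in every setting. The count of symbols higher at an unadjusted p below 0.05, 8 as deposited, was 4 after median centring, 2 after quantile normalization, 4 with trended and robust variances and 5 with the replicate block, and ran from 2 (without high salt replicate 1) to 15 (without low salt replicate 3) with 1 array left out. On the lower side, 0 as deposited, it was 1 after quantile normalization. Shares of all genes at this p under these settings are not given, so the counts are not compared with a background. Symbols higher without overlap, 14 as deposited, were 9 after median centring, 7 after quantile normalization and 14 to 22 with 1 array left out. The share of bright genes was 12.0% as deposited, and 6.03%, 5.48% and 13.2% to 35.9% in those settings. Symbols lower without overlap, 0 as deposited, were 2 after median centring, 1 after quantile normalization and 0 to 2 with 1 array left out. The share of bright genes was 1.59% as deposited, and 4.25%, 5.81% and 2.21% to 9.63% in those settings. Added after seeing the data, the median of the 41 proteasome genes, 0.36 as deposited, was 0.14 after quantile normalization and ran from 0.15 (without low salt replicate 1) to 0.46 with 1 array left out. The medians of finer groups and lists under other settings were also added then. Quantile normalization moved the medians of regulatory and assembly genes to 0.13 and of interferon-induced genes to 0.14, and the cause was not tested. With Psmc3ip and Psme3ip1 counted, chosen after seeing the data, the regulatory median was 0.31. The fit of the array weights stopped before its tolerance was reached.

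Signs turned mostly in genes near 0. After median centring Psma3 stood at -0.13, Psmd1 at -0.12, Psmd8 at -0.021 and Psmc4 at -0.11. After quantile normalization these were -0.17, -0.22, -0.14 and -0.22, with Psmb9 at -0.094, Psmg1 at -0.016 and Psme3ip1 at -0.045. Psma3 was -0.18 with array weights, and Psme4 0.30 as the mean of its probe sets. With 1 array left out, Psma3 ran from -0.19 to 0.17, Psmd1 from -0.19 to 0.14, Psmd8 from -0.0092 to 0.19, Psmc4 from -0.061 to 0.12, Psmg1 from -0.16 to 0.47, Psmg4 from -0.095 to 0.60, Psme3ip1 from -0.023 to 0.39 and Nfe2l1 from -0.19 to 0.088.

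The labels do not say that equal replicate numbers pair the arrays. Deviations of arrays of equal number correlated at 0.04, -0.27 and 0.04, beside -0.39 to 0.37 for unlike numbers. Of the 3 low salt arrays, 0 correlated best with the high salt array of its number. With 3 arrays per diet these values cannot exclude a pairing. With the replicate block the lowest adjusted p was 0.893, and no call changed.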

Other observations

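Genes that feed the proteasome were measured beside its subunits. Of 14 genes for ubiquitin activation, conjugation and the unfolding ATPase complex, 13 were higher after high salt and 1 lower. The median difference was 0.31 (9 of 14 and 0.11 without low salt replicate 1). By limma 0 passed the adjusted threshold and 1 stood at an unadjusted p below 0.05, where 5.72% of all genes were higher at that p. That gene was Sqstm1, a receptor that carries ubiquitinated proteins to autophagy, with 11.60, 11.64 and 11.88 after high salt and 10.07, 11.47 and 10.82 after low salt, a difference of 0.92 ± 0.35, or 0.56 without low salt replicate 1. Its diets did not overlap. Vcp, the ATPase that extracts ubiquitinated proteins from complexes, differed by 0.80 ± 0.45, and stood at 0.31 without low salt replicate 1, against 1.21 with low salt replicate 2 left out. Stub1, a ubiquitin ligase that works with heat shock proteins, differed by 0.45 ± 0.25, or 0.24 without high salt replicate 1 and 0.29 without low salt replicate 2. Both overlapped between diets. The activating enzyme Uba1 stood at 0.02 ± 0.19.

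Of 14 proteins known to associate with the proteasome, 11 were higher and 3 lower. Their median was 0.18, beside 0.25 for the bright genes (0.10 for both without low salt replicate 1). Not all of them are bright genes. Adrm1, Ubqln4, Ddi2 and Akirin2 lie in brightness quintile 2 and Ecpas in quintile 3, and genes of these quintiles had medians of -0.01 and 0.14. By limma 0 passed the adjusted threshold and 0 stood at an unadjusted p below 0.05. The lowest p was that of Zfand2a, a stress-induced binder of the regulatory particle, at 0.51 ± 0.21. Ecpas, a scaffold that holds the core and the regulatory particle together, was the 1 gene of this list without overlap, at 0.25 ± 0.13, or 0.13 without low salt replicate 1. The ubiquitin receptor Adrm1 stood at -0.26 ± 0.23, opposite in sign to the receptor Psmd4, from a probe set in brightness quintile 2. It had 7.67, 7.88 and 7.53 after high salt, against 8.43, 7.67 and 7.76 after low salt. The diets overlapped, and low salt replicate 1 lay well above the other arrays.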
